A study of Homo sapiens with 4 samples.

Results

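The genes described here encode the SRSF and HNRNP families of splicing regulators and the related TRA2A and TRA2B. They were taken as protein-coding genes by symbol, and kept at a mean of 10 or more reads over the 4 libraries. Of 41 such genes among the 58302 listed, 35 were kept: 12 SRSF genes, 21 HNRNP genes and both TRA2 genes. These families were taken up because HNRNPM was already known to be lower with dox in these same samples. They were thus chosen by its fold change and p-value in this comparison, and its difference is given as a description, with no p-value.

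SR proteins, the products of the SRSF genes, bind short exonic enhancers in pre-mRNA and recruit the splicing machinery to nearby splice sites. Their arginine and serine-rich domain is phosphorylated by the SRPK and CLK kinases. The hnRNP proteins coat nascent transcripts, often oppose SR proteins at weak exons, and also act in export, stability and translation of mRNA. TRA2A and TRA2B bind purine-rich enhancers in the manner of SR proteins. Many genes of both families control their own mRNA by splicing in an exon that leads to its decay, and read counts per gene do not separate those transcripts.

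The samples are NCIH838 cells, derived from a human lung tumour of the non-small-cell type, carrying an integrated construct with an sgRNA against MIB1, the gene of an E3 ubiquitin ligase, and a Cas9 gene under a promoter that doxycycline (dox) switches on. Every library, no dox included, comes from these engineered MIB1-iKO cells, which the study's methods describe as single-cell clones, and no library of cells without the construct entered the comparison. At day 3, 2 libraries had received no dox and 2 had received 0.5 μg/mL dox. The comparison asks which of these transcripts differ between cells with and without dox. No dox-treated cells without the sgRNA entered it, so MIB1 disruption, dox itself and Cas9 induction cannot be told apart.

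The total counts lay between 15943025 and 24398411 reads, with both dox libraries below both no dox libraries. MIB1 itself, the check of the labels, had 2.66 and 2.81 RPKM (reads scaled to gene length and library, as the authors deposited them) without dox, against 0.617 and 0.340 with it. Of 6 epithelial markers, KRT7, KRT8, KRT18, EPCAM and CDH1 were read in every library, with 3867 to 6831 reads for the list, and KRT19 was listed at 0 in all. Their summed RPKM was 116 and 125 without dox and 103 and 107 with dox. In RPKM, KRT18 and KRT8 were lower in both dox libraries, and KRT7, EPCAM and CDH1 were higher in both. With reads divided by the library total, 2 of these 5 genes were lower in both and 1 was higher in both. The median log2 fold change of the 5 genes was 0.13. Their part in the results was not tested. The leukocyte list had between 21 and 36 reads and the endothelial list between 6 and 19; PTPRC and CD68 were at 0. Fibroblast genes gave 92 and 91 reads in the no dox pair, and 27 and 85 in the dox pair, mostly of COL1A1, and COL1A2 was at 0. With 2 libraries a group, an exact two-sided permutation test cannot go below p = 0.333, so adjusted p-values are those of limma on voom-weighted counts over all 16181 genes tested. In bulk RNA, fewer cells with a transcript and less of it per cell cannot be told apart.

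Most members lay lower with dox, led by HNRNPM, SRSF2, SRSF1, SRSF5 and SRSF3. Of the 35 members, 30 had a log2 fold change below 0, where the share was 50.1% over all genes tested, and their median was -0.18 beside -0.00042 for all genes. Leaving HNRNPM out, 29 of 34 lay below 0 with a median of -0.17. Apart from HNRNPM, whose call is part of how the families were chosen and is not counted, 0 of 34 members had an adjusted p of at most 0.05 in limma, lower (0.0247% of all genes) or higher (0.0433%), and 0 of 34 were called at 2-fold (0.0371% in either direction). At an unadjusted p under 0.05, 11 of the other 34 were lower (4.59% of all genes) and 0 were higher (4.68%). Together the members held 0.463% and 0.471% of all reads without dox, and 0.399% and 0.406% with dox. Leaving HNRNPM out, the share was 0.457% and 0.463% without dox, and 0.395% and 0.402% with dox. Both dox libraries thus lay below both no dox libraries in this share without HNRNPM as well.

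**Figure D1:**
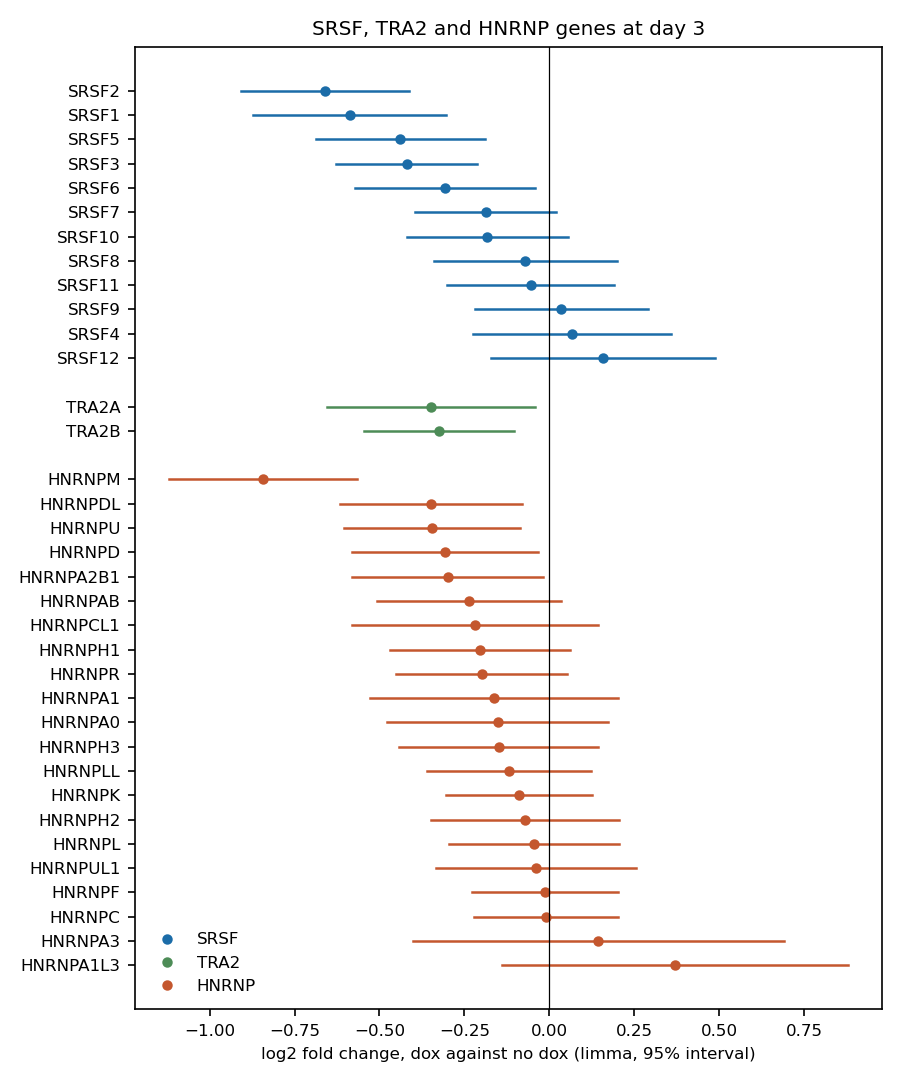
Log2 fold change of dox against no dox for each of the 35 members, with the 95% interval of limma, by family. SRSF2, SRSF1, SRSF5, SRSF3 and SRSF6, both TRA2 genes, and HNRNPDL, HNRNPU, HNRNPD and HNRNPA2B1 have intervals below 0, without adjustment for the number of genes. HNRNPC and HNRNPF sit at -0.01. HNRNPM, by which the families were chosen, is drawn as a description and its interval is not read as a test.

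HNRNPM (ENSG00000099783, GRCh38 chromosome 19, 8444767 to 8489114, plus strand) encodes a protein that binds GU-rich RNA and is known for its part in splicing of CD44. Its RPKM was 25.3 and 28.8 without dox, and 14.9 and 14.5 with dox. Both dox values lay well below both no dox values, and the mean was 45.6% lower with dox. The log2 fold change was -0.84 ± 0.13 (SE), and between -0.95 and -0.74 with any 1 library left out. Its 2 annotated pseudogenes together had at most 1 read in a library.

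SRSF2 (ENSG00000161547, chromosome 17, 76734115 to 76737333, minus strand), also known as SC35, is an SR protein that marks nuclear speckles and is recurrently mutated in myeloid neoplasms. Its RPKM was 52.5 and 55.4 without dox and 32.9 and 34.1 with dox, with means of 54.0 ± 2.03 and 33.5 ± 0.834 (SD, n = 2 in each group). The groups did not overlap, and the log2 fold change was -0.66 ± 0.12 (SE), at an adjusted p of 0.0636 in limma, just outside the threshold of 0.05. Of the 11 alternatives that gave an adjusted p, 6 placed it inside, among them edgeR at 0.0406 and DESeq2 at 0.000573. It stayed outside in limma with library size only, with thinned counts, with no count filter and on both RPKM scales. The adjusted p ranged from 1.76e-11, in limma with a term for replicate number, to 0.613. SRSF2 shares 823 exonic bases with MFSD11 on the opposite strand, whose log2 fold change was -0.30, at an adjusted p of 0.550 in limma, and whether reads were counted by strand is not stated.

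SRSF1 (ENSG00000136450, chromosome 17, 58000919 to 58007346, minus strand) is the founding SR protein and is known as an oncogene. It stood at 15.96 and 16.5 RPKM without dox and at 11.5 and 9.73 RPKM with dox. The groups did not overlap, with a log2 fold change of -0.59 ± 0.13 (SE), at an adjusted p of 0.167 in limma. In 1890 of its exonic bases a second gene is annotated on the same strand, so some of its reads may not be assigned.

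SRSF5 (ENSG00000100650, chromosome 14, 69726900 to 69772005, plus strand) stood at 25.5 and 25.1 RPKM without dox and at 18.8 and 17.6 RPKM with dox, for a log2 fold change of -0.44 ± 0.12 (SE), at an adjusted p of 0.247 in limma. SRSF3 (ENSG00000112081, chromosome 6, 36594353 to 36605600, plus strand), the smallest SR protein, which also serves mRNA export, stood at 128 and 115 RPKM without dox and at 101 and 81.0 RPKM with dox. Its log2 fold change was -0.42 ± 0.10 (SE), at an adjusted p of 0.174 in limma. For both genes each dox library lay below each no dox library.

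**Figure D2:**
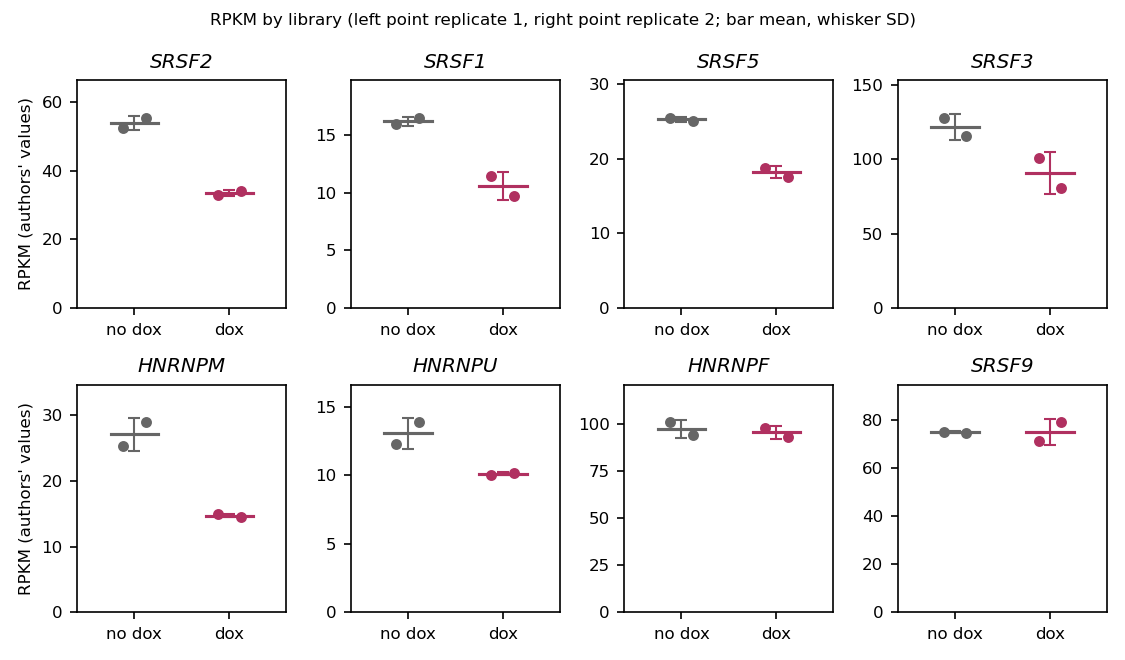
RPKM of 8 members in each library, on axes that start at 0, with the mean as a bar and the SD as a whisker (n = 2 in each group). In SRSF2, SRSF1, SRSF5, SRSF3, HNRNPM and HNRNPU both dox points lie below both no dox points, while those of HNRNPF and SRSF9 overlap.

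The stretch before SRSF3 is given from RefSeq on GRCh38.p14, up to the first annotated exon of the gene and on its own strand. It does not stand for the family. Of the SRSF promoters searched below, only that of SRSF3 held both a CCAAT box and a TATA box. Capitals mark CCAAT boxes, read on either strand, and a TATA box.
SRSF3, chr6:36594212-36594352, plus strand: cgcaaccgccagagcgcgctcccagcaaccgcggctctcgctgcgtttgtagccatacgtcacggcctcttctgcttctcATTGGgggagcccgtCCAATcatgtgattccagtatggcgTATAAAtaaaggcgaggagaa
A pair of CCAAT boxes in opposite orientation stands before the TATA box. The window was also searched on both strands for a GC box, an ETS site, an E2F-type site and a GC-rich SMAD site, and none of these letters was found.

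The letters searched were CCAAT for the CCAAT box and TATAAA for the TATA box. For the GC box they were GGGCGG, and for the ETS site CCGGAAG. For the E2F-type site GCGGGAA was used. The GC-rich SMAD site was read as GGCGCC.

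In the RefSeq table, which gives 250 bases before and 50 after each start, 31 of the 35 members had 45 promoters, since several genes have more than 1 start. SRSF2, TRA2A, HNRNPA1 and HNRNPA1L3 had no promoter there. The counts that follow are of promoters and not of genes: the 3 SRSF promoters with a CCAAT box belong to SRSF3 and SRSF8. A CCAAT box was found in 19 of 30 HNRNP promoters and in 3 of 14 SRSF promoters, where 34.6% of all 35116 promoters held one. An E2F-type site was found in 9 of 30 HNRNP and 3 of 14 SRSF promoters (6.55% of all), a GC box in 20 of 30 and 6 of 14 (45%), and a GC-rich SMAD site in 7 of 30 and 4 of 14 (19.2%). TATA boxes stood in 3 of 30 and 3 of 14 (11.5%), and ETS sites in 3 of 30 and 2 of 14 (10.3%). The letters of a GC box and an E2F-type site can overlap. Those of the GC box, E2F-type site and SMAD site are mostly G and C. The median GC content was 66.2% over the HNRNP promoters and 62.5% over the SRSF promoters, against 58.7% over all. Its part in these shares was not tested. These matches are a description of the promoters and do not show that a factor binds there.

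The remaining SRSF genes lay closer to 0. SRSF6 had 15.9 and 14.1 RPKM without dox and 12.2 and 11.5 RPKM with dox, without overlap, and a log2 fold change of -0.31 ± 0.12 (SE), at an adjusted p of 0.456 in limma. SRSF7, which carries a zinc knuckle beside its RNA-binding domain, was the most abundant member per length, at 311 and 260 RPKM without dox and 280 and 217 RPKM with dox. Its groups overlapped in RPKM and its log2 fold change was -0.19, at an adjusted p of 0.595 in limma. SRSF10, which turns into a general splicing repressor when dephosphorylated, had -0.18, SRSF8 had -0.07 and SRSF11 had -0.05 (0.0046 and 0.02 with no dox replicate 1 left out), with adjusted p-values of 0.656 or more in limma.

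At the upper end of the family were SRSF9, SRSF4 and SRSF12. SRSF9 stood at 75.2 and 74.7 RPKM without dox and at 71.3 and 79.0 RPKM with dox, so that the dox libraries lay on either side of the no dox libraries. Its log2 fold change was 0.04, with a 95% interval from -0.22 to 0.29. SRSF4 had 17.9 and 18.9 RPKM without dox and 17.1 and 20.9 RPKM with dox, again on either side, with a log2 fold change of 0.07 and an interval from -0.23 to 0.36. SRSF12, a less abundant SR protein, stood at 5.38 and 4.82 RPKM without dox and at 5.32 and 5.92 RPKM with dox, the highest log2 fold change of the family at 0.16 (95% interval from -0.17 to 0.49). The signs of SRSF9 and SRSF4 turned without dox replicate 2, to -0.06 and -0.09. The difference in response between these genes and SRSF2 or SRSF1 was not tested.

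Both TRA2 genes lay lower. TRA2A stood at 16.3 and 14.0 RPKM without dox and at 12.2 and 11.2 RPKM with dox, for a log2 fold change of -0.35 ± 0.14 (SE), at an adjusted p of 0.469 in limma. TRA2B, the more abundant of the pair, stood at 97.3 and 90.7 RPKM without dox and at 81.8 and 67.5 RPKM with dox, for a log2 fold change of -0.32 ± 0.10 (SE), at an adjusted p of 0.343 in limma. Neither gene had overlapping groups, and neither passed over all genes. TRA2A was at -0.22 with no dox replicate 1 left out.

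Among the HNRNP genes other than HNRNPM, HNRNPDL, HNRNPU, HNRNPD and HNRNPA2B1 stood lowest. HNRNPD (AUF1), which binds AU-rich elements of short-lived mRNAs, and its paralog HNRNPDL are neighbours on chromosome 4, at 82352498 to 82374503 and 82422565 to 82430462. HNRNPD stood at 23.5 and 26.8 RPKM without dox and at 18.9 and 20.7 RPKM with dox, for a log2 fold change of -0.31 ± 0.13 (SE), at an adjusted p of 0.472 in limma. HNRNPDL stood at 10.8 and 9.90 RPKM without dox and at 8.21 and 7.61 RPKM with dox, for a log2 fold change of -0.35 ± 0.13 (SE), at an adjusted p of 0.398 in limma. In both genes the dox libraries lay below the no dox libraries. HNRNPD was at -0.20 with no dox replicate 2 left out.

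HNRNPU, also called scaffold attachment factor A, stood at 12.3 and 13.8 RPKM without dox and at 10.04 and 10.2 RPKM with dox, without overlap. Its log2 fold change was -0.35 ± 0.12 (SE), at an adjusted p of 0.383 in limma. It was -0.23 without no dox replicate 2. HNRNPU shares 3502 exonic bases with COX20 on the opposite strand, which had a log2 fold change of -0.37, at an adjusted p of 0.492 in limma, and reads of the pair cannot be told apart without strand. HNRNPA2B1, one of the core proteins of hnRNP particles, stood at 75.1 and 87.8 RPKM without dox and at 63.2 and 67.9 RPKM with dox. Its log2 fold change was -0.30 ± 0.13 (SE), at an adjusted p of 0.507 in limma, and was -0.12 when no dox replicate 2 was left out, -0.49 when it was no dox replicate 1 and -0.16 when it was dox replicate 1.

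The most abundant HNRNP genes per length other than HNRNPA2B1 differed little. HNRNPF, which binds G-runs, stood at 101 and 94.0 RPKM without dox and at 98.1 and 93.0 RPKM with dox, overlapping, with a log2 fold change of -0.01 and a 95% interval from -0.23 to 0.20. HNRNPK, which binds C-rich RNA and DNA, stood at 92.5 and 86.7 RPKM without dox and at 86.7 and 79.4 RPKM with dox, for a log2 fold change of -0.09 with an interval from -0.31 to 0.13. HNRNPC, which binds uridine tracts, stood at 70.1 and 58.3 RPKM without dox and at 68.7 and 56.9 RPKM with dox. In HNRNPC both replicates numbered 1 were above both numbered 2, whatever the dox, and the log2 fold change was -0.01 with an interval from -0.22 to 0.20.

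The other HNRNP genes with a negative log2 fold change lay between -0.24, for HNRNPAB, and -0.04, for HNRNPUL1. They include HNRNPH1 (-0.21), HNRNPH3 (-0.15) and HNRNPH2 (-0.07), relatives of HNRNPF that bind G-runs, HNRNPR (-0.20), and HNRNPL (-0.04) and HNRNPLL (-0.12), which bind CA-rich RNA. All had adjusted p-values of 0.605 or more (limma). Small values among them rested on single libraries: that of HNRNPH3 was -0.0036 without dox replicate 1, and those of HNRNPUL1, HNRNPH2 and HNRNPL were then positive, at 0.10, 0.02 and 0.01. HNRNPA3 (0.14) and HNRNPA1L3 (0.37) were positive, the former at -0.10 with dox replicate 2 left out, and the latter, the highest of the family, stood at 2.81 and 2.79 RPKM without dox and at 3.48 and 3.85 RPKM with dox, at an adjusted p of 0.679 in limma.

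Reads of several members are uncertain because the genome holds near copies. HNRNPA1, usually one of the most abundant hnRNP genes, gave 297 and 326 reads in the no dox pair, and 183 and 218 in the dox pair, and 74 of its pseudogenes are annotated among the genes listed. HNRNPA1L3, HNRNPA3 (16 pseudogenes) and HNRNPCL1, a copy of HNRNPC, are uncertain in the same way. With these 4 genes left out the HNRNP median was -0.15. HNRNPL, HNRNPK and HNRNPC, whose pseudogenes had reads equal to 33.6%, 24.8% and 12.2% of their own, stayed in that median. Exons of 11 of the 35 members overlap a tested gene on the opposite strand. HNRNPA3 shares 3509 such bases with NFE2L2, SRSF9 shares 1725 with GATC and HNRNPA2B1 shares 1207 with NFE2L3. Below the limit on reads, the nearest genes were HNRNPUL2 (a mean of 7.5 reads), HNRNPCL3 (7) and HNRNPA1L2 (5.5), while HNRNPCL2, HNRNPCL4 and the read-through gene HNRNPUL2-BSCL2 had a mean of 1 or less. The member just above the limit was HNRNPA1L3, at 86.

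The families were then set side by side. The median log2 fold change was -0.18 over the 12 SRSF genes and -0.15 over the 21 HNRNP genes, a difference of -0.03 between medians. A log2 fold change of -0.3 or lower was found in 5 of 12 SRSF genes and, HNRNPM left out here and in the counts that follow, 3 of 20 HNRNP genes (12.8% of all genes tested). An unadjusted p under 0.05 with a lower level was found in 5 of 12 and 4 of 20 (4.59% of all genes). On the log2 CPM scale (each library divided by its total), both dox libraries lay below both no dox libraries in 9 of 12 SRSF and 9 of 20 HNRNP genes, against 17.4% of all genes. In RPKM, which carries a further scaling per library, the counts were 6 of 12 and 11 of 20, against 20.5% of all genes. Both dox libraries lay above both no dox libraries in HNRNPA1L3 alone, where the share of all genes was 18.7% in log2 CPM and 18.1% in RPKM.

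The difference between the families was smaller than the difference between libraries of a group. Taking each gene relative to its mean over the 4 libraries, the SRSF median was 0.13 and 0.06 in no dox replicates 1 and 2 and -0.11 and -0.15 in dox replicates 1 and 2. The HNRNP median was 0.05 and 0.14 without dox and -0.13 and -0.03 with dox. The SRSF median thus exceeded the HNRNP median in both libraries numbered 1, by 0.08 and 0.02, and lay below it in both numbered 2, at -0.09 and -0.12. The difference between the family medians was 0.06 with no dox replicate 1 left out and 0.01 with dox replicate 2 left out, so its sign was not fixed.

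**Figure D3:**
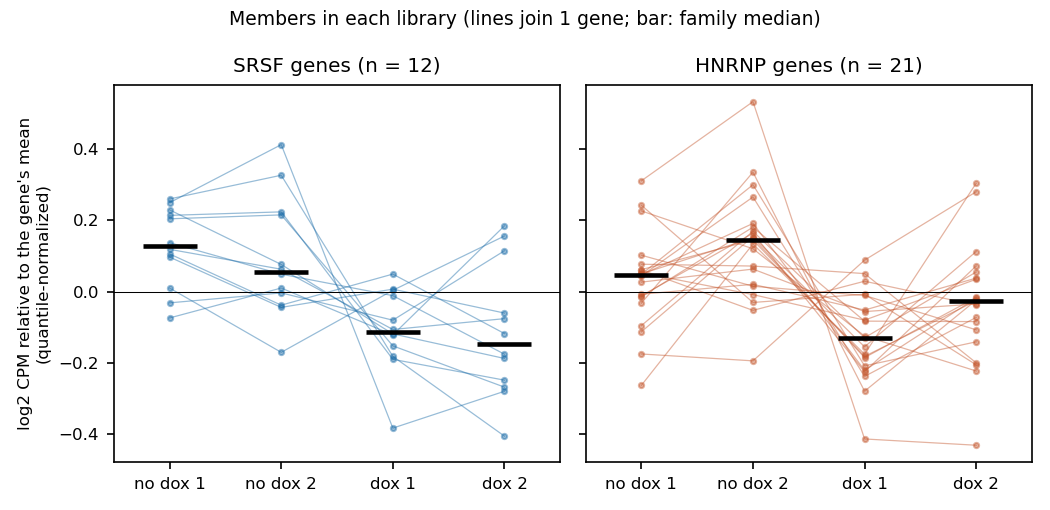
Quantile-normalized log2 CPM of each SRSF gene (left) and each HNRNP gene (right) in the 4 libraries, relative to the gene's mean, with thin lines joining 1 gene and bars at the family median. Both medians are above 0 in the no dox libraries and below 0 in the dox libraries, and the order of the families changes with the replicate number.

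Genes that work with these families were compared through lists drawn up by function, with earlier results of these data known. Of the 8 hnRNP proteins that carry other symbols, 5 had a negative log2 fold change and the median was -0.16. RBMX, or hnRNP G, had -0.41 ± 0.12 (SE), at an adjusted p of 0.306 in limma. In this list 2 of 8 had an unadjusted p under 0.05 and were lower (4.59% of all genes), and 0 were higher (4.68%).

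Of the other splicing regulators, 22 of 29 had enough reads to test. Their median was -0.12, with 1 of 22 lower (4.59% of all genes) and 2 of 22 higher (4.68%) at an unadjusted p under 0.05. The lower one was SFPQ, a paraspeckle protein that works in splicing and transcription, at 38.2 and 41.8 RPKM without dox and 25.2 and 25.3 RPKM with dox. Its log2 fold change was -0.64 ± 0.12 (SE), at an adjusted p of 0.0923 in limma. MBNL2, a muscleblind protein, had 0.48 and KHDRBS3 had 1.07, the latter on 9, 11, 17 and 15 reads.

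Of the 22 SR-related proteins, which have arginine and serine-rich stretches but lie outside the SRSF family, 14 had a negative log2 fold change, with a median of -0.08. LUC7L (-0.51) and SCAF4 (-0.47) were lower and RSRP1 (0.45) and RSRC2 (0.32) higher at an unadjusted p under 0.05, which makes 2 of 22 in each direction (4.59% and 4.68% of all genes). The SR protein kinases, phosphatase and import receptors had a median of -0.01, with 6 of 11 tested genes below 0 and 0 with an unadjusted p under 0.05 in either direction; SRPK3 was not tested. None of these 4 lists held a gene with an adjusted p of at most 0.05 in limma (0.068% of all genes in either direction).

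**Figure D4:**
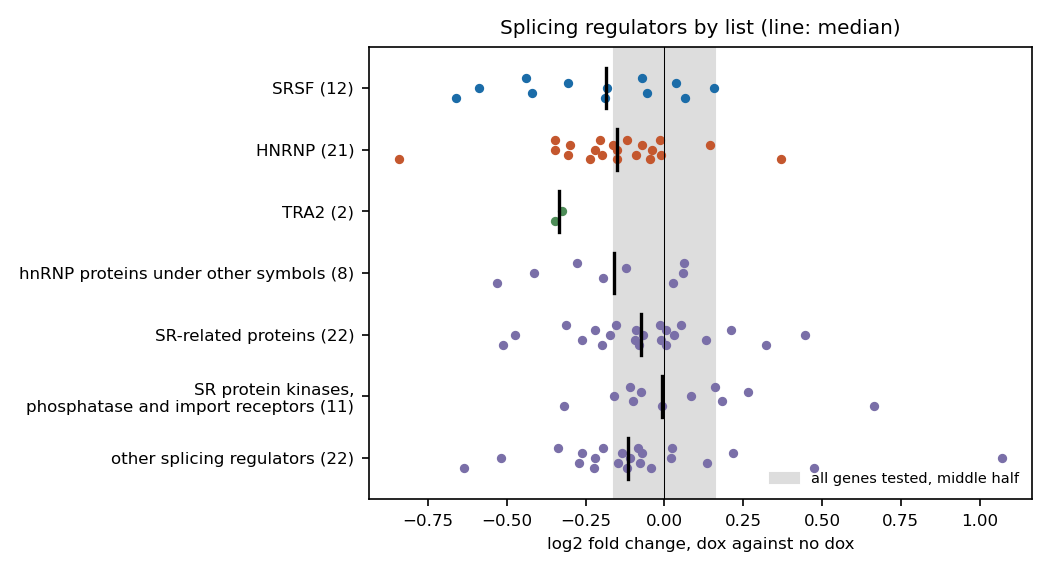
Log2 fold change of dox against no dox for each gene of the SRSF, HNRNP and TRA2 families and of the 4 other lists, with the median as a line and the range between the quartiles of all genes tested, from -0.16 to 0.16, shaded. The medians of the families lie between -0.34 and -0.15, and that of the kinases, phosphatase and import receptors lies at -0.01.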

How the data were processed

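RNA-seq of 4 samples was analysed, 2 without and 2 with dox. According to the study's methods and the submitters' processing notes, the authors used GSNAP, after removal of ribosomal reads, to align to GRCh38, and HTSeqGenie to count. The deposited counts are whole, unnormalized reads per Ensembl gene. The authors also deposited RPKM values, with a further scaling per library. The library kit used for these samples and whether counting used strand are not given in the sources used here. GENCODE release 44 supplied symbols for 57532 of 58302 identifiers, gene types and positions (GRCh38, counted from 1).

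Genes passing filterByExpr (16181), a filter on low counts that the study's methods do not name, were analysed after those methods: they were scaled by library size, quantile-normalized, weighted with voom and compared with limma 3.58.1 in R 4.3.3, with Benjamini-Hochberg adjustment over all genes tested. The study's call adds a 2-fold change. Counts of members use an adjusted p of at most 0.05. RPKM served for levels. The members, lists and naming rule were chosen with earlier results of these data known. Every member could be named, and genes of other lists at an unadjusted p under 0.05, except where a result is not reported here. Alternatives were edgeR 4.0.16, DESeq2 1.42.0, other scalings and filters, limma on log2 of RPKM plus 0.1 or plus 1, a term for replicate number, and leaving out each library. The fit was also run on counts simulated with independent libraries, which checks the code and does not bear on the results for these members. Chi-square per degree of freedom between any pair of libraries was 8.18 or more, so no library repeats another. The labels do not say whether replicates are separate cultures, so p-values measure the spread between these samples.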

Additional observations from a re-analysis of the deposited data

How the results depend on the processing

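Removal of the GC and length trend and thinning to the smallest total are alternatives chosen after seeing the data. So are leaving out HNRNPM and leaving out some of the members with near copies. HNRNPM, whose result chose the families, is included in the counts of members here and supports nothing; the other gene in each count of 2 is SRSF2. The number of members passing 0.05, 1 with the settings of the report, was 2 with edgeR, DESeq2, voom with TMM, a mean count of at least 50 and the GC and length trend removed. It was 2 with 0.1 as the threshold and 0 with the 2-fold requirement, and 0 with no count filter, on log2(RPKM + 0.1) and on log2(RPKM + 1). Over all genes the number, 11 in the report, was 28 with DESeq2, 6 with the 2-fold requirement, and 0 with no count filter and on both RPKM scales, where limma gave 2092, 1442 and 1438 genes at an unadjusted p under 0.05. HNRNPM was then not called, at -0.84 with no count filter, -0.87 on log2(RPKM + 0.1) and -0.83 on log2(RPKM + 1); the cause was not tested. With 1 library left out, where only fold changes can be had, the SRSF median lay between -0.22 and -0.14, the HNRNP median between -0.21 and -0.12, and 26 to 31 of 35 members were below 0. No family median changed sign in any alternative.

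The groups share replicate numbers, whose meaning the labels leave out. With the replicate block 13 members passed, HNRNPM included and all lower with dox, among 1154 genes (7.13% of all), on 1 residual degree of freedom; HNRNPM was at -0.85. Across the 16181 genes, deviations of same-numbered samples from their group means had r = 0.134, and across the 35 members r = 0.657, a description over genes that share libraries. The smallest chi-square per degree of freedom between libraries, 8.18 and 8.26, were those of same-numbered samples.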

Other observations

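Pseudogenes named after the members were counted as genes of their own. Among them 134 belonged to 20 parents, and 16 of these had a mean of 10 or more reads. Their reads summed to 6.62% of those of their parents. The share was highest for HNRNPL, at 33.6% of its own reads, followed by HNRNPK, at 24.8%, and HNRNPC, at 12.2%. Those of SRSF1 and SRSF2 had 0 reads in every library, and those of HNRNPU had between 2 and 8.

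Across the 12 SRSF genes Spearman's rho between log2 fold change and mean RPKM was -0.20, and across the 21 HNRNP genes it was 0.08. For the GC content of the longest transcript it was -0.17 and 0.01. These are descriptions across genes that share libraries. Over all genes tested the same values were 0.03 for RPKM and 0.03 for GC content.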
